A study of Arabidopsis thaliana with 4 samples.

Results

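The genes described here are 4 monosaccharide transporters of Arabidopsis thaliana: STP1, STP3 and STP13, which carry hexoses across the plasma membrane, and TMT2, which carries them across the tonoplast, the membrane of the vacuole. They were chosen by name, as 1 probe set each, out of 22746 probe sets other than Affymetrix controls. RNA was measured in detached source leaves (full-grown leaves, which export sugar) of wild-type Col-0 rosette plants that had not flowered. The first group was fed 100 mM sucrose (2 arrays) and the second 100 mM sorbitol (2 arrays), both in 2 mM MES buffer at pH 6.5 through the cut petiole for 13 h in the dark. Both groups had grown in a 14 h day and a 10 h night and their leaves were taken as the day ended. Leaves were not sampled before feeding, so sorbitol-fed leaves are the control for feeding and not an untreated state. The labels do not say whether replicates came from separate plants, so p-values measure a spread between arrays that may be technical.

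STP proteins are sugar/proton symporters, which use the proton gradient across the plasma membrane to bring glucose and other hexoses from the cell wall space into the cell. Sucrose that reaches the cell wall space can be split there by cell wall invertase, which yields the hexoses these carriers take up. TMT proteins work in the opposite sense at the vacuole, where they exchange protons for sugar and so load the vacuole with it. In leaves these carriers are known for setting how sugar is divided between the cell wall space, the cytosol and the vacuole.

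The platform annotation gave a gene for 2 of the 4 probe sets, 247529_at (AT5G61520, called STP3 here) and 253188_at (TMT2, AT4G35300). The remaining 2, 262456_at (STP1) and 246831_at (STP13), were not listed there and carry the names under which they were selected. RefSeq gives STP1 as the symbol of AT1G11260 and STP13 as a synonym of MSS1, AT5G26340. All 4 probe sets were bright enough to be tested, and the lowest of their 16 values, 41.2, was above 9.3, the brightest value among 27 control probe sets for Bacillus genes. Intensities below are MAS5 values as deposited, with every array scaled to the same trimmed mean. Levels of different probe sets are not compared with each other.

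STP1 was lower in sucrose-fed leaves, while STP3 and TMT2 were higher, and STP13 was higher on 1 of the 2 sucrose arrays. The log2 changes, sucrose minus sorbitol, were -2.04 for STP1, 0.98 for STP3, 1.14 for TMT2 and 1.24 for STP13. None of the 4 passed limma's test at an adjusted p under 0.05, against 1.29% of the 13648 probe sets tested. At an unadjusted limma p under 0.05 there were 3 (STP1, STP3 and TMT2), against 20.7% of all probe sets tested. The sucrose values were both above the sorbitol values for 2 genes (STP3 and TMT2) and both below them for 1 (STP1). Groups were apart in the same way for 26.1% of all probe sets tested in the higher direction and for 26.2% in the lower one, so with 4 genes these counts are not a result of their own.

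**Figure D1:**
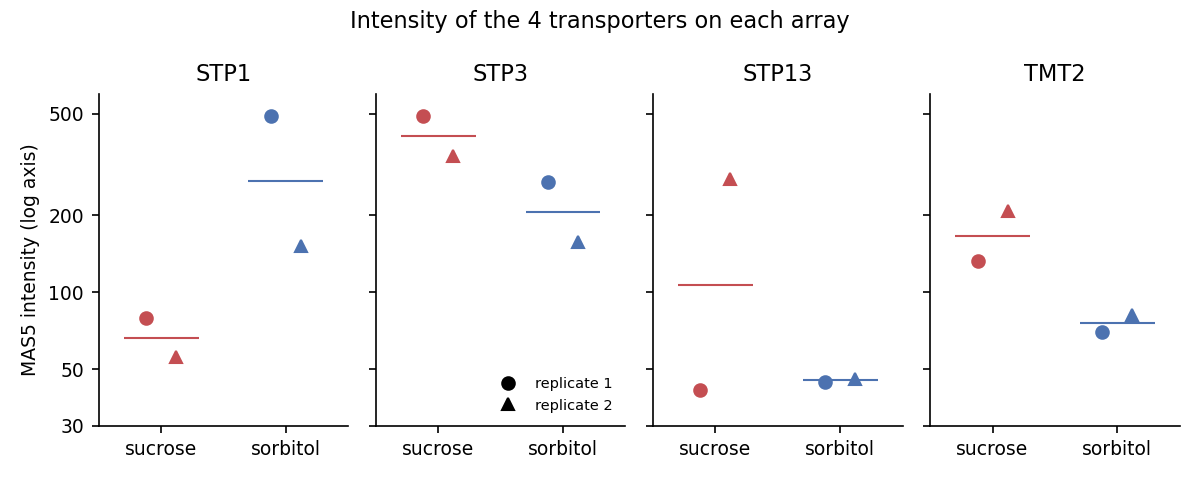
MAS5 intensity on a log axis for each transporter on the 2 sucrose and 2 sorbitol arrays, with circles for replicate 1, triangles for replicate 2 and a line at the mean of the log2 values (n = 2 per group). STP1 lies lower on both sucrose arrays, STP3 and TMT2 lie higher on both, and STP13 stands at 278.0 on sucrose 2 and between 41.2 and 45.9 on the remaining arrays.

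STP1 is a high-affinity hexose symporter that is known from guard cells and seedlings. Its intensity was 78.9 on sucrose 1 and 55.5 on sucrose 2, against 489.5 on sorbitol 1 and 151.4 on sorbitol 2. The groups did not overlap, and the sorbitol arrays lay farther apart than the sucrose arrays, by 1.69 against 0.51 log2 units. The mean log2 intensity was 6.05 ± 0.36 (SD, n = 2) in sucrose-fed leaves and 8.09 ± 1.20 in sorbitol-fed leaves. STP1 was thus 4.11-fold lower with sucrose, at a log2 change of -2.04 ± 0.58 SE with a 95% interval of -3.43 to -0.65 (limma adjusted p = 0.130). The change was -2.63 within replicate number 1 and -1.45 within replicate number 2. Its size followed the sorbitol array used: it was -1.19 without sorbitol 1 and -2.89 without sorbitol 2. A change at least as low was seen in 1.77% of the probe sets tested, and sorbitol arrays at least as far apart in 2.35%.

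STP3 is a lower-affinity hexose symporter of green leaves that is known to respond to wounding. Its intensity was 487.8 on sucrose 1 and 340.2 on sucrose 2, against 269.3 on sorbitol 1 and 157.6 on sorbitol 2. Both sucrose values were the higher ones, and in each group the replicate 2 array was the lower. The mean log2 intensity was 8.67 ± 0.37 (SD, n = 2) with sucrose and 7.69 ± 0.55 with sorbitol. The difference was 1.98-fold, a log2 change of 0.98 ± 0.39 SE with a 95% interval of 0.05 to 1.92 (limma adjusted p = 0.226). It was 1.81-fold within replicate number 1 and 2.16-fold within replicate number 2. Without sorbitol 2 the log2 change was 0.60. A change at least as high was seen in 9.47% of the probe sets tested.

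STP13 is a high-affinity hexose symporter that is known for its induction in leaves under attack by pathogens. Its intensity was 41.2 on sucrose 1 and 278.0 on sucrose 2, against 44.5 on sorbitol 1 and 45.9 on sorbitol 2. Sucrose 2 was alone in being high, sucrose 1 was the lowest of the 4 arrays, and the groups overlapped. The mean log2 intensity was 6.74 ± 1.95 (SD, n = 2) with sucrose and 5.50 ± 0.03 with sorbitol. The log2 change of 1.24 ± 0.83 SE had a 95% interval of -0.76 to 3.25 (limma adjusted p = 0.456). Within replicate number 1 the change was -0.11, and within replicate number 2 it was 2.60, a 6.06-fold difference. Without sucrose 2 the change turned to -0.13. Without sucrose 1 it was 2.62, in a fit in which the lone sucrose array was assumed to vary like the sorbitol arrays.

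The array on which STP13 was high also stood apart for other probe sets. On sucrose 2, 67 probe sets, STP13 included, lay above all of the remaining arrays by at least 2.60 log2 units, the margin of STP13. They were 0.491% of those tested. On sucrose 1, sorbitol 1 and sorbitol 2 there were 0 such probe sets. In the older GAPDH control, the signal at the 3 prime end minus that at the 5 prime end, a measure of RNA integrity, was 0.20 log2 units on sucrose 2 and 1.43 on sucrose 1, against 1.85 on sorbitol 1 and 1.44 on sorbitol 2. In the newer GAPDH control this measure did not set sucrose 2 apart, at -0.01 on sucrose 2 and 0.15 on sucrose 1, against 0.04 on sorbitol 1 and 0.33 on sorbitol 2. In the newer actin control it was 0.88 on sucrose 2 and 1.93 on sucrose 1, against 1.88 on sorbitol 1 and 2.77 on sorbitol 2. The part of RNA integrity in the STP13 value was not tested.

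TMT2 is one of the tonoplast carriers that move sugar into the vacuole in exchange for protons. Its intensity was 132.4 on sucrose 1 and 208.2 on sucrose 2, against 70.1 on sorbitol 1 and 81.1 on sorbitol 2. The groups did not overlap, and the sorbitol arrays lay close together. The mean log2 intensity was 7.38 ± 0.46 (SD, n = 2) with sucrose and 6.24 ± 0.15 with sorbitol. TMT2 was 2.20-fold higher with sucrose, a log2 change of 1.14 ± 0.35 SE with a 95% interval of 0.30 to 1.98 (limma adjusted p = 0.148). It was 1.89-fold higher within replicate number 1 and 2.57-fold within replicate number 2. A change at least as high was seen in 7.03% of the probe sets tested. The GAPDH and actin control probe sets were also higher on both sucrose arrays. The newer actin control at the 3 prime end was at 1060.7 and 1009.1 with sucrose, against 590.5 and 574.0 with sorbitol. What these rises share with those of STP3 and TMT2 was not tested.

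**Figure D2:**
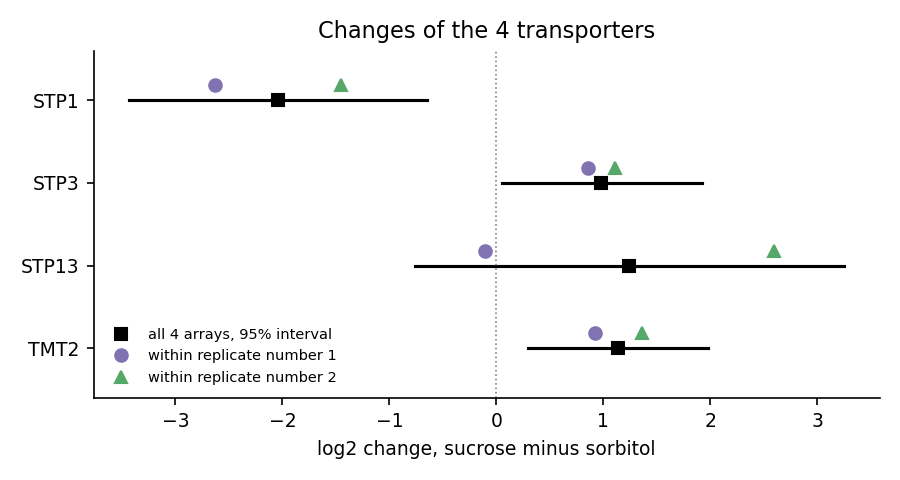
Log2 change, sucrose minus sorbitol, of each transporter, with squares and bars for the limma estimate over all 4 arrays and its 95% interval, circles for the difference within replicate number 1 and triangles for that within replicate number 2. The intervals of STP1, STP3 and TMT2 exclude 0 before adjustment for the number of probe sets tested, and that of STP13 runs from -0.76 to 3.25.

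With 2 arrays against 2, an exact two-sided permutation test cannot give a p below 0.333. STP1, STP3 and TMT2 each had this smallest exact p of 0.333, and STP13 had an exact p of 1.0. Changes are given within replicate numbers because the ribosomal RNA control probe sets split the arrays by that number, while the GAPDH and actin controls did not. The 25S ribosomal RNA control had an intensity of 1255.2 on sucrose 1 and 56.6 on sucrose 2, against 2163.2 on sorbitol 1 and 14.4 on sorbitol 2. STP1, STP3 and TMT2 kept 1 direction within both replicate numbers, as any gene must whose groups do not overlap. STP13 did not, while 70.5% of all probe sets tested kept 1 direction. With the replicate number as a block in limma, 3 of the 4 passed (STP1, STP3 and TMT2), against 8.28% of all probe sets tested in the higher and 8.84% in the lower direction.

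**Figure D3:**
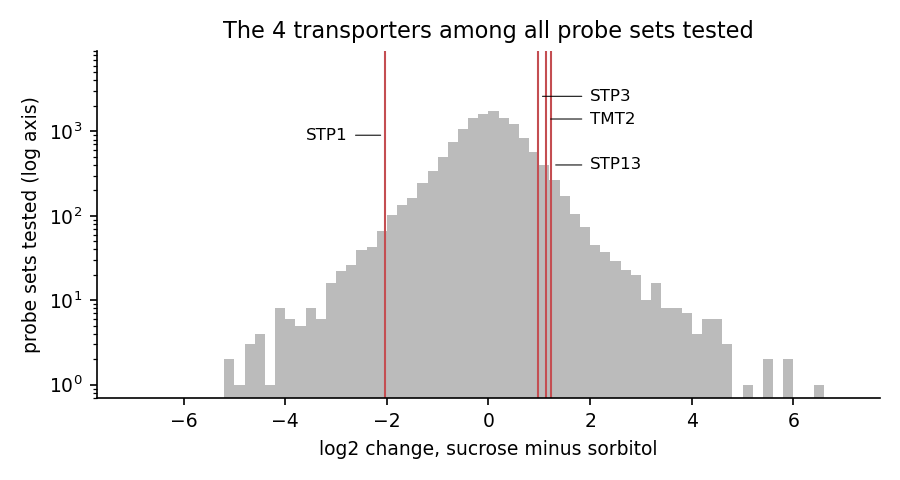
Histogram of the log2 change, sucrose minus sorbitol, of the 13648 probe sets tested (log axis for the number of probe sets), with lines at the 4 transporters. STP1 at -2.04 lies toward the lower tail, and STP3, TMT2 and STP13 lie between 0.98 and 1.24 on the upper flank, within the spread of all probe sets.

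Among the STP genes, 6 of 14 had a probe set named here, and 4 of these were tested, 3 of them members of the set above. Genes without a named probe set, here and in the lists below, may still be on the array, since 8730 probe sets had no gene listed. STP5, a further gene of this family and the remaining one tested, had 23.6 on sucrose 1 and 39.3 on sucrose 2, against 18.3 on sorbitol 1 and 32.0 on sorbitol 2. These values overlapped, at a log2 change of 0.33 (limma adjusted p = 0.740). STP8 and STP10, picked with their values in view, were too dim to be tested: STP8 lay between 8.3 and 10.2 and STP10 between 0.9 and 3.6. The median log2 change of the 4 tested STP genes was 0.66, beside 0.02 over all probe sets tested, with 3 values above 0 and 1 below.

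Of 11 tonoplast sugar transporters 7 had a named probe set, and 0 of the 5 tested passed. VGT2, of the vacuolar glucose transporter group, was 2.09-fold higher, at 266.0 on sucrose 1 and 283.6 on sucrose 2, against 136.5 on sorbitol 1 and 126.3 on sorbitol 2 (limma adjusted p = 0.125). Its log2 change of 1.06 was close to the 1.14 of TMT2, and both were higher in both replicate numbers. SWEET17, which lets fructose cross the tonoplast, had a log2 change of 0.66, and was 2.14-fold higher within replicate number 1 and 1.16-fold within replicate number 2. SWEET2, which lets glucose cross it, had -0.70, at -1.11 within replicate number 1 and -0.28 within replicate number 2.

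TMT1, another carrier of the TMT family, was picked with its values in view. Its log2 change was -0.57 (limma adjusted p = 0.497). Its intensity was 35.4 on sucrose 1 and 31.6 on sucrose 2, against 69.6 on sorbitol 1 and 35.6 on sorbitol 2. Sorbitol 1 alone was high, and the change was -0.98 within replicate number 1 and -0.17 within replicate number 2. The difference between the changes of TMT1 and TMT2 was not tested. TMT3, likewise picked, had 10.0 and 15.2 on the sucrose arrays and 9.0 and 16.5 on the sorbitol arrays, and was too dim to be tested. The median log2 change of the 5 tested tonoplast genes was 0.66, with 3 above 0 and 2 below, and that of the 4 without TMT2 was 0.05, with 2 above 0 and 2 below.

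Of 16 other genes of the monosaccharide transporter superfamily 5 had a named probe set and 4 were tested, with a median log2 change of -0.96, and 0 passed. AT1G19450, of the ERD6-like group, had 254.6 on sucrose 1 and 158.3 on sucrose 2, against 520.1 on sorbitol 1 and 460.6 on sorbitol 2. It was 2.44-fold lower with no overlap (limma adjusted p = 0.122). SFP2, also ERD6-like, was 2.57-fold lower, at -0.97 within replicate number 1 and -1.75 within replicate number 2 (limma adjusted p = 0.164). PMT4, of the polyol transporter group, had 59.0 and 62.8 on the sucrose arrays, against 36.1 and 28.0 on the sorbitol arrays, a log2 change of 0.94 (limma adjusted p = 0.188). Both directions thus occurred within the superfamily, as they did among the 4 transporters described first.

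The hexoses that enter the cytosol are phosphorylated by hexokinases and fructokinases, and a list of 12 such genes had 6 with a named probe set, all of them fructokinase-like. The 3 tested were all higher with sucrose, with a median log2 change of 1.04, and 0 passed. The fructokinase AT2G31390 had 828.1 on sucrose 1 and 735.7 on sucrose 2, against 409.5 on sorbitol 1 and 353.8 on sorbitol 2. It was 2.05-fold higher, at 2.02-fold within replicate number 1 and 2.08-fold within replicate number 2 (limma adjusted p = 0.131). AT5G51830 had a log2 change of 1.42 and AT1G66430, a plastid fructokinase, one of 1.01.

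Of 8 genes listed as invertases, enzymes that release hexoses from sucrose, 2 had a named probe set, and neither passed in limma. BFRUCT3, a vacuolar invertase, had a log2 change of -0.29 with a 95% interval of -2.15 to 1.56. CWINV6, which is known to cleave fructans rather than sucrose despite its name, had a log2 change of -0.11. BFRUCT3 was high on the replicate 2 arrays of both groups, at 427.3 on sucrose 2 and 663.5 on sorbitol 2, against 159.4 on sucrose 1 and 154.5 on sorbitol 1. Proton pumps supply the gradient that these carriers use. Of 8 listed genes 3 had a named probe set, all tonoplast or endomembrane subunits of the V-type ATPase. VHA-a2 had a log2 change of 0.51, VHA-a1 of 0.41 and VHA-a3 of 0.16, and none passed in limma. No plasma membrane sucrose symporter of the 4 listed had a named probe set.

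Over these lists, 17 tested genes were not among the 4 transporters, and their log2 changes ran from -1.36 to 1.42. None passed in limma at an adjusted p under 0.05 and 6 had an unadjusted p under 0.05, against 1.29% and 20.7% of all probe sets tested. Sucrose arrays lay above sorbitol arrays for 8 of the 17 and below for 5, with an overlap for 4, against 26.1% and 26.2% of all probe sets tested. Of the 17, 15 kept 1 direction within both replicate numbers, against 70.5% of all probe sets tested. Genes without overlap must do so, and the rest of the 15 did so with overlap. Over the 4 arrays the change of STP1 was lower than that of any of these 17 genes. Within replicate number 2, however, SFP2 (-1.75) and AT1G19450 (-1.54) were lower than STP1 (-1.45).

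**Figure D4:**
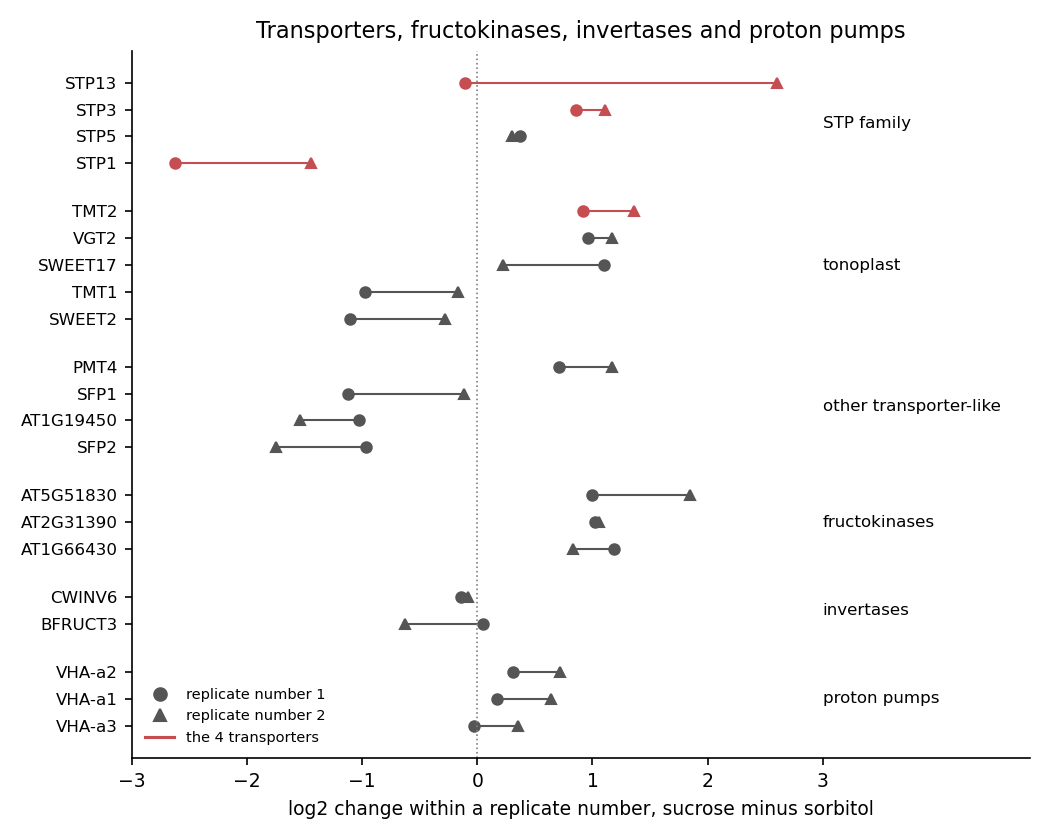
Log2 change, sucrose minus sorbitol, within replicate number 1 (circles) and replicate number 2 (triangles) for the 21 tested genes of the lists, with the 4 transporters in red and a line joining the pairs of a gene. STP13 has the widest gap between replicate numbers, from -0.11 in the first to 2.60 in the second. STP3, TMT2, VGT2 and the 3 fructokinases lie above 0 in both, and so do STP5, SWEET17, PMT4, VHA-a1 and VHA-a2.

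The genes most like each transporter were sought by the root mean square distance between log2 values, each centred on its own mean over the 4 arrays, among 7353 tested single-gene probe sets. For STP3 these were AT4G12600, AT3G07110 and AT1G08280, at distances of 0.0258 to 0.0471 log2 units. For TMT2 they were AT1G70780, GT72B1 and AT1G69250, at 0.0305 to 0.0597. The nearest genes of STP13 were AT2G32030, AT2G32020 and AT1G63530, at 0.130 to 0.147, and those of STP1 were AT2G30600, AT1G72060 and AT1G80180, at 0.118 to 0.228. AT2G30600 had 20.1 and 16.8 on the sucrose arrays, against 145.8 and 38.7 on the sorbitol arrays, and like STP1 it was highest on sorbitol 1. AT2G32030 had 25.6 on sucrose 1 and 135.3 on sucrose 2, against 24.6 and 23.8 on the sorbitol arrays, so that it too was high on sucrose 2 alone. With 4 arrays and many candidates, close patterns are easily found, and these distances are a description.

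**Figure D5:**
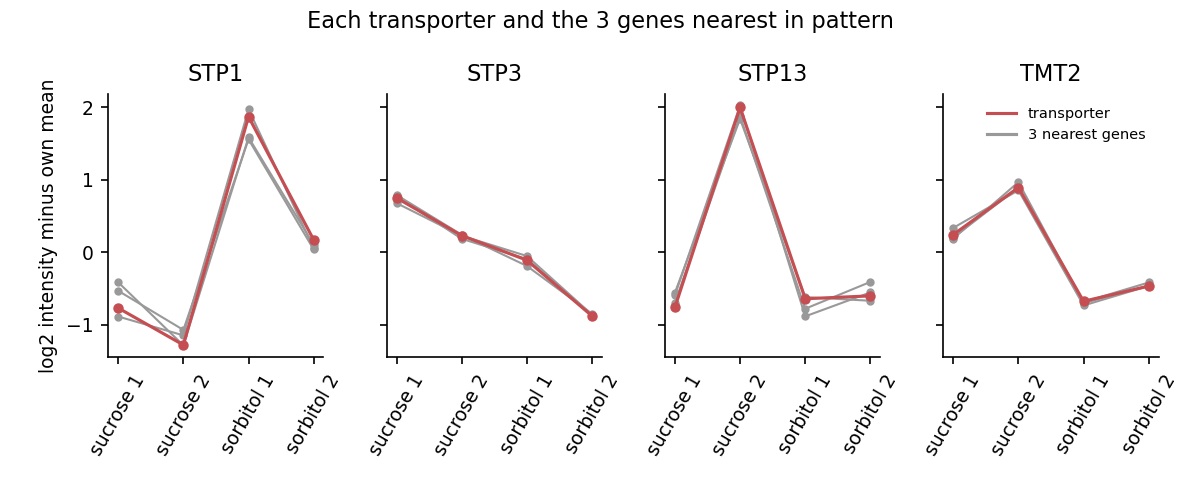
Log2 intensity minus the gene's own mean over the 4 arrays, for each transporter (red) and the 3 genes nearest to it (grey), over sucrose 1, sucrose 2, sorbitol 1 and sorbitol 2; lines only join the values of a gene. STP1 and its nearest genes peak on sorbitol 1, and STP13 and its nearest genes peak on sucrose 2.

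Of 22 marker genes of leaf cell types 4 had a named probe set. For all 4 the sucrose values were below the sorbitol values without overlap, as for 26.2% of all probe sets tested, and none passed in limma. In whole leaves, fewer cells of a type and less RNA per cell cannot be told apart. Of 6 guard cell markers 2 had a named probe set. Their summed intensity was 66.1 and 53.9 on the sucrose arrays, against 154.5 and 134.8 on the sorbitol arrays. GC1, whose promoter is used to mark guard cells, had a log2 change of -2.16 (limma adjusted p = 0.0601), and FMA, a regulator of guard cell formation, had -0.33 (limma adjusted p = 0.643). Of 6 phloem markers, SWEET11 alone had a named probe set. SWEET11 lay at 399.3 and 368.8 with sucrose, against 1829.4 and 1098.5 with sorbitol (limma adjusted p = 0.0625). Of 6 mesophyll markers, RCA alone had a named probe set. RCA lay at 1546.8 and 835.5 with sucrose, against 3833.5 and 3154.9 with sorbitol (limma adjusted p = 0.0941). No epidermis marker of the 4 listed had a named probe set, and no marker that had one was at 0. Their part in the changes of STP1, STP3 and TMT2 was not tested.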

How the data were processed

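Leaf RNA (10 µg of total RNA, isolated with TRIzol) was labelled with biotin, per the labels' protocols, and hybridised to ATH1 arrays. The authors made the deposited intensity values with MAS5, per the submitters' processing notes; its version and settings are not given in the sources used here. The 2% trimmed mean of every array was 100.01, so the values were read as linear and already scaled. No scanner files or detection calls were used, and the number of arrays limits the precision.

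Values were floored at 0.1 and converted to log2. The 64 Affymetrix controls were left out, and the dimmest were dropped by a filter at the 40th percentile of mean log2 values, an intensity of 18.6, which left 13648 probe sets to test. Sucrose was compared with sorbitol in limma 3.58.1 under R 4.3.3 (lmFit and eBayes, with a mean-variance trend), with Benjamini-Hochberg adjustment over all probe sets tested.

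The platform annotation paired 13513 probe sets with a single gene and 503 with several, and did not list 8730; 13436 single-gene probe sets matched RefSeq (TAIR10.1) by gene number. Positions are not given because the build of the array is not stated. Where a list gene had several single-gene probe sets, the brightest stood for it. Genes named are the 4 transporters, list genes past the threshold, up to 3 further genes per list in order of p, and the 3 nearest genes of each transporter. STP8, STP10, TMT1 and TMT3 fall outside this rule and were chosen after their values were seen. The 4 members, the lists and the alternatives were chosen with earlier results of these data known. Alternatives were other filters, a pseudocount of 5.3, dim values raised to 9.3, quantile normalisation, median centring, no trend, the replicate number as a block and each array left out in turn.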

Additional observations from a re-analysis of the deposited data

How the results depend on the processing

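STP1, STP3 and TMT2 kept their direction under all 12 alternatives, with log2 changes of -2.89 to -1.19, 0.60 to 1.37 and 0.81 to 1.47. Their groups did not overlap, so leaving out an array, a pseudocount or a floor for dim values could not turn it. The filters, the variance model and the block do not move the estimate, so only the scalings could have turned the direction. STP13 ran from -0.13 without sucrose 2 to 2.62 without sucrose 1. None of the 4 passed in limma under the filters, pseudocount, dim-value floor, scalings or variance model. Fits without 1 array are read for the size of the change only, since 1 group then has a single array. With the replicate number as a block 3 passed: STP1 (-2.04, limma adjusted p = 0.00161), STP3 (0.98, limma adjusted p = 0.0485) and TMT2 (1.14, limma adjusted p = 0.0234). STP13 did not (limma adjusted p = 0.0970). Under the block 8.28% of all probe sets tested passed higher and 8.84% lower. No label says what arrays of 1 number share. Their deviations from the group means correlated at 0.43 across the probe sets tested, which 2 pairs cannot settle, and only 1 residual degree of freedom remains in that fit. Of the 21 tested list genes, the 4 transporters included, 9 passed with the block. Over all probe sets the 176 calls were 3 with no filter, 265 with the 60th percentile filter, 92 with quantile normalisation, 103 without the trend, 2336 with the block and 0 to 955 without 1 array; the cause was not tested. Detection calls were not used here, and 2 arrays per group limit what the test can call.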
